A study of Mus musculus with 12 samples.

Results

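Ribosome footprints were compared between mouse embryonic fibroblasts (MEFs) transduced with a lentiviral shRNA against ARF (WT-shARF, 2 libraries) and MEFs transduced with a scrambled shRNA (WT-shSCR, 2 libraries). These 4 libraries are 4 of the 12 in the series, and they were chosen by their labels alone. The cells were wild-type MEFs at passage 4, whose strain is C57BL/6J in the sample labels and B6129SF2/J in the study's methods, and both groups carried a puromycin-selected pLKO.1 vector, so that the hairpin is the only labelled difference between them. The matched RNA-seq libraries of the same groups (2 and 2) and footprint libraries from Arf-KO-shSCR MEFs (2 libraries, strain B6.129X1-Cdkn2atm1Cjs/KaiJ, passage 4, scrambled shRNA) are set beside the comparison where they bear on it. In the Arf-KO-shSCR cells *Arf* is inactivated in the germline, so these cells differ from the wild type by strain as well as by *Arf*. Nothing in the labels says that replicates came from separate cultures, and p-values therefore measure only the spread between these libraries.

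Ribosome profiling sequences the short mRNA fragments that translating ribosomes protect from RNase, so the number of footprints on a gene reflects both how much of its mRNA is present and how densely ribosomes occupy it. ARF, encoded with p16INK4a by the *Cdkn2a* locus, is a nucleolar tumour suppressor that restrains ribosome production and stabilises p53 by binding MDM2. 5′-TOP mRNAs begin with a cytosine followed by a run of pyrimidines. They encode ribosomal proteins and translation factors, and their entry into polysomes is controlled by mTORC1 and the cap-binding repressor LARP1.

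The annotated starts of 9 5′-TOP mRNAs are printed here because the run of pyrimidines at the 5′ end is what defines the class. They are those of the 20 called genes with an annotated tract whose footprint rise held whichever of the 4 libraries was left out. Each line gives the first 20 bases of a transcript in the sense direction, 5′ to 3′, from the GENCODE M21 annotation of GRCm38, with the leading pyrimidine tract in capitals. *Rps9*, *Rps13*, *Rps18* and *Rps25* encode small subunit proteins, *Rpl4*, *Rpl10*, *Rpl32* and *Rpl37* encode large subunit proteins, and *Eef1b2* encodes the nucleotide exchange subunit of elongation factor 1. Each window is the annotated start of 1 transcript that begins on a tract, and other transcripts of the gene may start elsewhere. Where these mRNAs start in the cells used was not measured.
Rps9 (chr7:3704038-3704057, plus strand): CTCTTTgtctcgggcctgag
Rps13 (chr7:116334114-116334133, minus strand): CTCTTTgctgccagacctcc
Rps18 (chr17:33955644-33955663, minus strand): CTCTTCCacaggaggcctac
Rps25 (chr9:44407695-44407714, plus strand): CCTTTTTTTCCgacatctta
Rpl4 (chr9:64173375-64173394, plus strand): CTTTTCCTgtgggagcagcc
Rpl10 (chrX:74270857-74270876, plus strand): CTCTTTTCCTCTggcgcggt
Rpl32 (chr6:115808728-115808747, minus strand): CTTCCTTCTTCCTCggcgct
Rpl37 (chr15:5116645-5116664, plus strand): CTCTTCCggtctctttggcc
Eef1b2 (chr1:63177130-63177149, plus strand): CTTTTTTTCCCTCagcgctg
The tracts ran from 6 bases in *Rps9* and *Rps13* to 14 in *Rpl32*. A tract of C followed by at least 4 bases that are each C or T was present at the annotated start of at least 1 transcript for 23 of the 77 genes of the 5′-TOP list that were tested (29.9%) and for 599 of the other 10198 genes tested with an annotated start (5.87%). A missing tract says only that no annotated transcript starts on one. Among the 599 genes outside the list, 24 rose and 37 fell (median log2 change −0.06), beside 5.63% and 5.5% of all genes tested. Among the 23 genes of the list 20 rose and 0 fell (0.35), beside 60 and 0 of all 77 listed genes tested (0.33).

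The 4 footprint libraries held 2544319 to 4800039 counts on 20661 genes, and reads that did not map uniquely were 46.3 to 52.7% of what was counted. Replicates differed by more than counting noise, with a chi-square per gene of 4.23 between the WT-shSCR libraries and 3.77 between the WT-shARF libraries. The fibroblast markers *Col1a1*, *Col1a2*, *Vim* and *Fn1* each took a large share of the footprints, *Pdgfra*, *Dcn*, *Lum* and *Fap* had at most 36 counts in any library, *Tie1*, *Krt5*, *Myf5*, *Adipoq*, *Lep* and *Dcx* were at 0 in all 4 libraries, while other genes from the same endothelial, epithelial, muscle, neural and adipocyte marker lists were counted in every library, among them *Flt1* (194 to 427 counts), *Krt19* (164 to 366), *Des* (147 to 303), *Nes* (1415 to 2269) and *Cd36* (41 to 104). Of the few markers of these lists that were tested, the muscle genes *Des* and *Acta1* and the adipocyte gene *Cd36* fell, with changes of −0.70, −0.67 and −1.57. These calls were lost without WT-shSCR replicate 1 for *Des* (−0.51, adjusted p = 0.111) and *Acta1* (−0.58, 0.0634), without WT-shARF replicate 1 for *Des* (−0.65, 0.0664) and *Acta1* (−0.63, 0.0987), and without WT-shARF replicate 2 for *Acta1* (−0.71, 0.0704) and *Cd36* (−1.13, 0.0515). Macrophage genes were present at lower levels, with fewer footprints in the WT-shARF libraries.

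Gene-level counts of the targeted locus went against the label, although the study reports ARF knockdown at the protein level, by immunoblot. The study also states that this hairpin does not alter INK4A expression. *Cdkn2a* (chr4:89274471-89294653, minus strand) had 93.2 and 66.1 CPM (counts scaled by library size, with TMM factors) in the WT-shSCR libraries and 532 and 741 CPM in those labelled WT-shARF. Both libraries labelled WT-shARF were far above both WT-shSCR libraries, with a log2 change of 2.99 (SE 0.14, adjusted p = 3.49e-17, quasi-likelihood F test of edgeR, adjusted after Benjamini and Hochberg, as throughout). Its RNA was also higher, by 3.91 on the log2 scale. The counts are per gene, so ARF and p16INK4a, which share most of their exons in different reading frames, cannot be told apart, and reads from the vector were not separated from those of the locus. The samples are therefore called the libraries labelled WT-shARF, and every direction given here is theirs over WT-shSCR. The neighbouring inhibitor gene *Cdkn2b* had 83.4 and 63.0 CPM against 69.9 and 64.9 CPM, with overlapping groups (log2 change −0.13, adjusted p = 0.743).

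Across the genome, footprint changes were many and small. Of 10307 genes tested, 580 rose (5.63%) and 567 fell (5.5%) in the libraries labelled WT-shARF at an adjusted p under 0.05. The median log2 change was 0.63 among those that rose and −0.72 among those that fell, and 110 rose (1.07%) and 171 fell (1.66%) at least 2-fold. Changes above 0, called or not, made up 49.7% of all genes. Both counts rested on having 2 libraries labelled WT-shARF, since both were clearly smaller without either of them. Without either WT-shSCR library the totals changed less, but many calls were lost and others took their place. The genes were then put in 5 equal groups by footprint level. Of the group with the fewest footprints 1.84% passed, and of that with the most 30.9%. The median absolute log2 change of the called genes went from 2.23 to 0.48 between them. Counts of calls in the gene lists below were not adjusted for footprint level. *Sv2a* was called although its groups overlapped, with 2 and 10 counts in the WT-shSCR libraries and 815 and 15 in the libraries labelled WT-shARF, and without replicate 1 of that group its log2 change of 6.03 was 0.48 (adjusted p = 0.916). *Fsd1* had 36 and 23 counts in the WT-shSCR libraries and 0 in both libraries labelled WT-shARF, at least 12.1-fold lower against a floor of 3 counts per library.

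**Figure D1:**
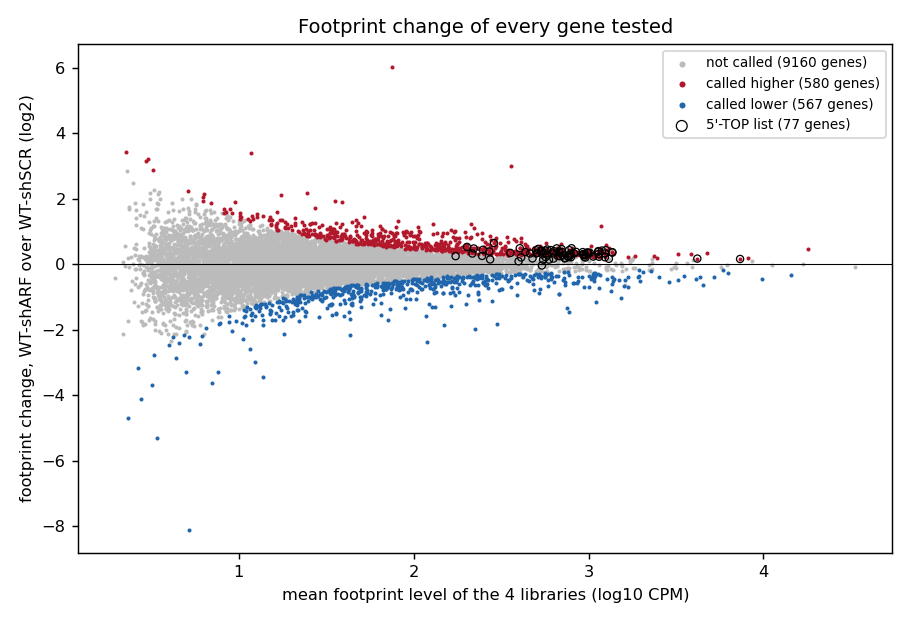
Log2 footprint change (WT-shARF over WT-shSCR) against the mean footprint level of the 4 libraries (log10 CPM) for the 10307 genes tested; red and blue points rose and fell, and open circles are the 77 tested genes of the 5′-TOP list. Most of the large changes lie at low levels, while the 5′-TOP genes form a narrow band a little above 0 at high levels.

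The 5′-TOP mRNAs moved together by a small amount. The list holds 82 names, of which 79 were in the files and 77 were tested, *Rpl34* and *Rps27* being at 0 in all 4 libraries. Of the 77 tested, 60 rose and 0 fell, beside 5.63% and 5.5% of all genes, with changes between −0.03 and 0.65 and a median of 0.33 on the log2 scale. In 74 of the 77 genes both libraries labelled WT-shARF were above both WT-shSCR libraries, as in 25.6% of all genes. The count was 37 without either library labelled WT-shARF and 53 without either WT-shSCR library. The largest change was in *Rpl36a*, a large subunit protein gene with 246 and 201 CPM in the WT-shSCR libraries and 363 and 341 CPM in those labelled WT-shARF (log2 change 0.65, SE 0.10, adjusted p = 3.58e-05). *Rpl37*, whose start is printed above, went from 156 and 174 CPM to 245 and 232 CPM, a log2 change of 0.53. In both genes the groups were clearly apart.

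Ribosomal protein genes were then counted by subunit, beside 5.63% of all genes that rose and 5.5% that fell. Of 47 large subunit genes 34 rose (median 0.31), and of 32 small subunit genes 25 rose (median 0.34), with no member of either lower. Without the libraries labelled WT-shARF in turn (replicate 1, then replicate 2) these counts were 23 and 20, and 14 and 17. *Rpl23a* had 498 and 537 CPM in the WT-shSCR libraries and 677 and 721 CPM in those labelled WT-shARF (log2 change 0.43, adjusted p = 0.000356). *Rpl22* had 181 and 187 CPM against 258 and 257 CPM (0.48, adjusted p = 0.00204). *Rps14* rose from 535 and 561 CPM to 711 and 824 CPM (0.49, adjusted p = 0.000103). The genes that did not pass included *Rpl38*, whose change was −0.03, and the 5′-TOP genes *Tpt1*, which encodes translationally controlled tumour protein (686 and 687 CPM against 817 and 741 CPM, 0.18, adjusted p = 0.147), and *Pabpc1*, the cytoplasmic poly(A)-binding protein (596 and 588 CPM against 686 and 651 CPM, 0.18, adjusted p = 0.176). In these last 2 genes the libraries labelled WT-shARF were the higher ones, but the difference did not pass the test. Many ribosomal protein genes have processed pseudogenes, and with only uniquely placed reads counted their absolute levels are uncertain.

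The ribosomal proteins of mitochondria, which are encoded by other genes, were counted apart. Of 77 tested, 2 rose (*Mrpl46* by 1.24 and *Mrps30* by 0.69) and *Mrpl10* fell, with a change of −0.71, beside 5.63% and 5.5% of all genes, and 55 of the 77 were above 0, with a median of 0.21. The call of *Mrpl46* was lost without WT-shSCR replicate 1 (0.92, adjusted p = 0.0585), that of *Mrps30* without WT-shSCR replicate 2 (0.62, adjusted p = 0.107) or either library labelled WT-shARF (0.67 and 0.71, adjusted p = 0.17 and 0.16), and that of *Mrpl10* without any 1 of the 4. The count of rises was 1 without either library labelled WT-shARF and 5 without WT-shSCR replicate 1.

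Translation factor and synthetase genes were higher where they changed, beside 5.63% of all genes that rose and 5.5% that fell. These lists are not separate: *Eef1a1*, *Eef1b2* and *Eef2* are also 5′-TOP genes, and *Eif5a* is on both factor lists. The initiation factor list also holds regulators, among them *Eif4ebp1*, *Eif4ebp2*, *Eif4enif1* and the kinase genes *Eif2ak1* to *Eif2ak4*. Of 10 elongation factor genes 6 rose and 0 fell (median 0.35), of 51 initiation factor genes 12 rose and 0 fell (0.21), and of 20 cytosolic aminoacyl-tRNA synthetase genes 6 rose and 0 fell (0.19). Without the libraries labelled WT-shARF in turn, the counts were 3 and 2 for elongation factors, 3 and 1 for initiation factors (7 without WT-shSCR replicate 2), and 2 and 3 for synthetases. *Eef1b2* had 613 and 567 CPM in the WT-shSCR libraries and 790 and 838 CPM in those labelled WT-shARF (log2 change 0.47, adjusted p = 9.87e-05). *Eif4h*, a cofactor of the helicase eIF4A, went from 278 and 256 CPM to 373 and 381 CPM (0.50, adjusted p = 0.000405). *Kars* and *Vars*, which charge tRNAs with lysine and valine, rose by 0.55 and 0.52. *Eef2*, the translocase of elongation, had 3966 and 3906 CPM against 4415 and 4474 CPM (0.18, adjusted p = 0.0239), a call lost without WT-shARF replicate 1 (0.19, adjusted p = 0.0839) or replicate 2 (0.16, adjusted p = 0.185). The scaffold *Eif4g1* had a change of −0.01 (adjusted p = 0.959) and *Larp1* one of 0.19 (adjusted p = 0.401). Of 16 genes of the mTORC1 and 5′-TOP control list only *Eif4ebp1*, the eIF4E-binding repressor 4E-BP1, passed (0.66), and its call was lost without WT-shSCR replicate 2 (0.61, adjusted p = 0.0836) and without WT-shARF replicate 2 (0.39, adjusted p = 0.55).

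Of 26 nucleolar genes of ribosome production 11 rose and 0 fell, with a median of 0.38, and the count was 7 without WT-shARF replicate 1, 4 without replicate 2 and 7 without WT-shSCR replicate 1. *Dkc1*, the pseudouridine synthase dyskerin, had 53 and 57.1 CPM in WT-shSCR and 104 and 94.9 CPM in those labelled WT-shARF (0.85, adjusted p = 0.000608). *Ddx21*, a nucleolar RNA helicase, rose from 238 and 241 CPM to 344 and 362 CPM (0.56, adjusted p = 0.000115). Of 30 splicing factor genes 14 rose and 0 fell (median 0.33, 6 without either library labelled WT-shARF), with *Hnrnpab* at 0.56 and *Srsf2* at 0.50. Both lists stand beside 5.63% of all genes that rose and 5.5% that fell.

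Mitosis genes rose nearly throughout, beside 5.63% of all genes that rose and 5.5% that fell. Of 32 tested 29 rose and 0 fell, with a median of 0.95, and the count stayed at 27 to 29 whichever library was left out. *Birc5*, which encodes survivin of the chromosomal passenger complex, had 26.8 and 28.3 CPM in WT-shSCR and 77.8 and 74.2 CPM in those labelled WT-shARF (log2 change 1.46, adjusted p = 4.48e-06). *Ccna2*, cyclin A2, went from 82.1 and 70.1 CPM to 187 and 176 CPM (1.25, adjusted p = 7.66e-08). The spindle checkpoint kinase gene *Bub1b* rose by 1.32 and the mitotic kinesin gene *Kif20a* by 1.11. Each library labelled WT-shARF held more than either WT-shSCR library in these 4 genes. The 3 members that did not pass were *Aurkb* (0.61), *Ttk* (0.62) and *Pttg1* (0.24). Among 41 DNA replication genes 16 rose and 0 fell (median 0.49; 7 and 10 without WT-shARF replicates 1 and 2), with thymidine kinase *Tk1* at 58.5 and 72.0 CPM against 114 and 116 CPM (0.82, adjusted p = 0.000499).

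p53 target genes were lower where they changed, beside 5.63% of all genes that rose and 5.5% that fell. Of 27 tested 8 fell and 0 rose, with a median of −0.33, and 3 fell without WT-shARF replicate 2. *Mdm2*, the ubiquitin ligase of p53, had 223 and 214 CPM in the WT-shSCR libraries and 143 and 125 CPM in those labelled WT-shARF (−0.71, adjusted p = 6.72e-05). *Cdkn1a*, which encodes the Cdk inhibitor p21, had 566 and 521 CPM against 431 and 382 CPM (−0.42, adjusted p = 0.00133), and its call was lost without WT-shARF replicate 2 (−0.34, adjusted p = 0.0922). *Perp*, a membrane protein gene induced by p53, fell from 25.2 and 14.6 CPM to 3.24 and 3.32 CPM (−2.59, adjusted p = 0.000233).

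**Figure D2:**
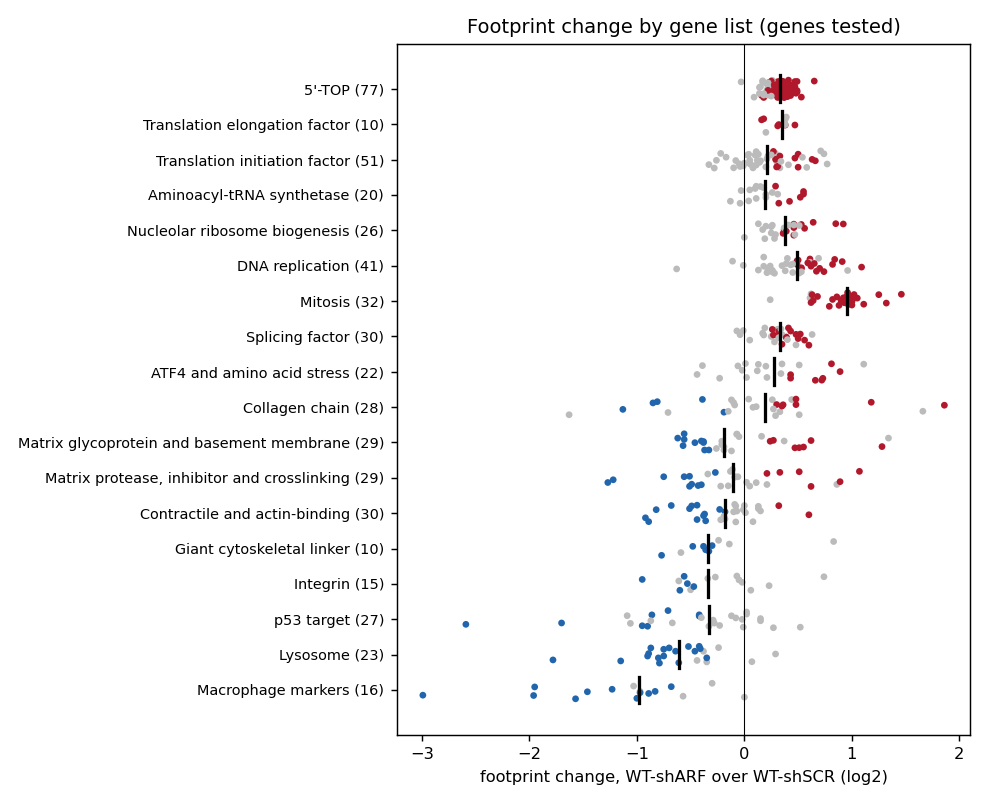
Log2 footprint change of each tested member of 18 gene lists (points, with the number tested in brackets; red rose, blue fell, grey did not pass) and the list's median (black bar). The 5′-TOP genes sit close together above 0, the mitosis genes near 1, and the lysosome and macrophage lists below 0, while collagen and matrix lists spread to both sides.

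Genes of the extracellular matrix moved in both directions, beside 5.63% of all genes that rose and 5.5% that fell. Of 28 collagen chain genes 7 rose and 5 fell, of 29 matrix glycoprotein genes 7 rose and 10 fell, and of 29 matrix protease, inhibitor and crosslinking genes 6 rose and 10 fell. Of the matrix glycoprotein genes 4 rose without WT-shARF replicate 1. Without the libraries labelled WT-shARF in turn, the collagen counts were 4 and 3 higher and 2 and 3 lower, and 2 were lower without WT-shSCR replicate 1. *Col3a1*, the fibrillar collagen of compliant tissue, had 774 and 665 CPM in the WT-shSCR libraries and 1596 and 1666 CPM in those labelled WT-shARF (log2 change 1.18, SE 0.08, adjusted p = 1.53e-13). *Col1a1* rose by 0.48 (adjusted p = 2.10e-10), and the cartilage collagen gene *Col2a1* fell, from 297 and 302 CPM to 157 and 174 CPM (−0.85). Among glycoproteins *Efemp1* (fibulin-3) rose by 1.28 and the basement membrane gene *Nid2* by 0.62, while *Fbln2* (fibulin-2) and *Ltbp2*, which encodes a microfibril-associated protein, fell, with changes of −0.62 and −0.57. The plasminogen system split in the same way. The urokinase gene *Plau* fell from 264 and 292 CPM to 117 and 122 CPM (−1.22, adjusted p = 2.56e-09) and its inhibitor gene *Serpine2* from 221 and 242 CPM to 96.5 and 95.6 CPM (−1.27), whereas the tissue-type activator gene *Plat* rose by 1.07.

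Contractile, adhesion and linker genes were mostly lower where they changed, beside 5.63% of all genes that rose and 5.5% that fell. Of 30 contractile and actin-binding genes 13 fell and 2 rose (*Tagln2* by 0.60 and *Csrp1* by 0.32), with a median of −0.18. The call of *Csrp1* was lost without either library labelled WT-shARF (adjusted p = 0.124 and 0.0581) and without WT-shSCR replicate 1 (0.0754). Calponin 1, encoded by *Cnn1*, had 922 and 852 CPM in the WT-shSCR libraries and 517 and 421 CPM in those labelled WT-shARF (−0.92, adjusted p = 3.63e-09). The filamin gene *Flnc*, which encodes an actin crosslinker of muscle, fell, with a change of −0.82. *Cfl2*, the muscle cofilin, went from 185 and 178 CPM to 73.5 and 73.6 CPM (−1.30, adjusted p = 2.00e-08). Of 15 integrin genes 5 fell and 0 rose (3 without WT-shARF replicate 2), among them the fibronectin receptor subunit gene *Itga5*, with 1548 and 1729 CPM against 1043 and 1118 CPM (−0.60, adjusted p = 2.40e-07), and *Itgav* (−0.56). Of 10 genes for giant cytoskeletal linkers 6 fell and 0 rose (median −0.34; 3 and 2 without WT-shARF replicates 1 and 2), including *Utrn* (−0.77) and *Ahnak* (−0.36). None of these 10 passed in RNA in edgeR or DESeq2, with 1 higher and 0 lower at an unadjusted p under 0.05.

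Lysosomal genes fell as a group, beside 5.63% of all genes that rose and 5.5% that fell. Of 23 tested 17 fell and 0 rose, with a median of −0.61, and the count was 10 without WT-shARF replicate 1 and 11 without WT-shSCR replicate 2. The aspartyl protease gene *Ctsd* had 1606 and 1450 CPM in the WT-shSCR libraries and 693 and 689 CPM in those labelled WT-shARF (log2 change −1.15, adjusted p = 1.53e-13). *Ctsb* fell from 664 and 689 CPM to 349 and 382 CPM (−0.89), and *Ctsa* from 299.6 and 307 CPM to 166 and 158 CPM (−0.90). In all 3 protease genes the groups were far apart. Macrophage markers moved with them. Of 16 macrophage genes tested 11 fell and 0 rose, with a median of −0.98 (5 fell without WT-shARF replicate 2), and their summed share of all footprints was 0.0929 and 0.0937% in WT-shSCR and 0.0448 and 0.0363% in the libraries labelled WT-shARF. *Lyz2*, lysozyme of phagocytes, had 355 and 356 CPM against 100.5 and 83.1 CPM (−1.96, adjusted p = 2.63e-14), *Mrc1* 20.9 and 23.2 CPM against 2.52 and 2.90 CPM (−2.99), and *Apoe* 472 and 458 CPM against 124 and 141 CPM (−1.81). Macrophages are rich in lysosomes, and the part of these cells in the lysosomal change was not tested. In bulk cells, fewer cells of a type and less RNA per cell cannot be told apart.

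Further lists were metabolic, immune and signalling genes, whose counts are to be read beside the 5.63% of all genes that rose and the 5.5% that fell. None of 12 interferon response genes and none of 9 genes of MHC class I and antigen loading passed in edgeR or DESeq2, with 1 higher and 3 lower, respectively, at an unadjusted p under 0.05. Of 77 oxidative phosphorylation genes 3 rose and 1 fell, of 37 proteasome genes 0 rose and 3 fell, of 14 glycolysis genes 1 rose and 2 fell, of 21 cholesterol synthesis genes 1 rose and 1 fell, and of 22 genes of the ATF4 and amino acid stress response 7 rose and 0 fell. Most of the calls in the first 3 of these lists were lost with 1 library left out: without WT-shARF replicate 1 there were 0 rises and 0 falls in oxidative phosphorylation, 0 proteasome falls (1 without WT-shSCR replicate 2) and 0 glycolysis rises, and without WT-shARF replicate 2 there were 0 rises and 0 falls in oxidative phosphorylation and 0 glycolysis falls. The ATF4 list included enzymes of serine and one-carbon metabolism, *Psat1* (283 and 294 CPM against 473 and 482 CPM, 0.73, adjusted p = 6.60e-07), *Shmt2* (0.72) and *Psph* (0.89). Of 33 growth factor genes 5 fell and 0 rose (2 and 3 without WT-shARF replicates 1 and 2). The growth factor gene *Igf2* fell from 1146 and 1029 CPM to 420 and 436 CPM (−1.34, adjusted p = 2.99e-14), and the prostaglandin synthase gene *Ptgs2* from 1142 and 1143 CPM to 420 and 407 CPM (−1.47, adjusted p = 2.01e-15).

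The largest changes among genes with at least 30 counts in each library of the higher group were mostly in genes at low levels. After *Cdkn2a*, and after *Crct1* (1.64 and 2.36 CPM in WT-shSCR, 19.5 and 23.2 CPM in those labelled WT-shARF, log2 change 3.42, adjusted p = 8.58e-06), the larger rises included *Fam132b*, which encodes the iron-regulating hormone erythroferrone (2.19), and *Mamdc2* (2.12). *Ptx3*, a secreted pattern recognition protein, went from 12.8 and 16.9 CPM to 57.3 and 55.6 CPM (1.93, adjusted p = 1.23e-06). *Lrrc17* rose by 1.91 and *Capn6* by 1.73. *Mettl5*, *Dusp8* and *Irx1* (2.16, 2.04 and 1.91) were called on all 4 libraries but not without WT-shARF replicate 2 (adjusted p = 0.0749, 0.12 and 0.095). *Mettl5* and *Dusp8* also lost their calls without WT-shARF replicate 1 (0.23 and 0.275), *Mettl5* without WT-shSCR replicate 2 (0.131), and *Dusp8* and *Irx1* without WT-shSCR replicate 1 (0.259 and 0.0517). Among the falls, *Angptl7*, a secreted angiopoietin-like protein, had 21.6 and 28.7 CPM in WT-shSCR and 2.52 and 2.07 CPM in those labelled WT-shARF (−3.45, adjusted p = 2.26e-06). The kinesin gene *Kif1a* fell from 183 and 215 CPM to 41.8 and 35.9 CPM (−2.37, adjusted p = 1.81e-13), and *Plcxd2* and the scavenger receptor gene *Msr1* had changes of −2.27 and −2.14. *Spa17* had 23.9 and 118 CPM in the WT-shSCR libraries and 18.4 and 13.3 CPM in those labelled WT-shARF, and its change of −2.18 was −0.61 (adjusted p = 0.383) without WT-shSCR replicate 2. *Abat* and *Ankrd60* (−2.04 and −1.86) likewise lost their calls without WT-shSCR replicate 2 (−1.65, adjusted p = 0.142, and −1.15, adjusted p = 0.325), and *Abat* also without WT-shARF replicate 2 (−1.74, adjusted p = 0.0963).

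**Figure D3:**
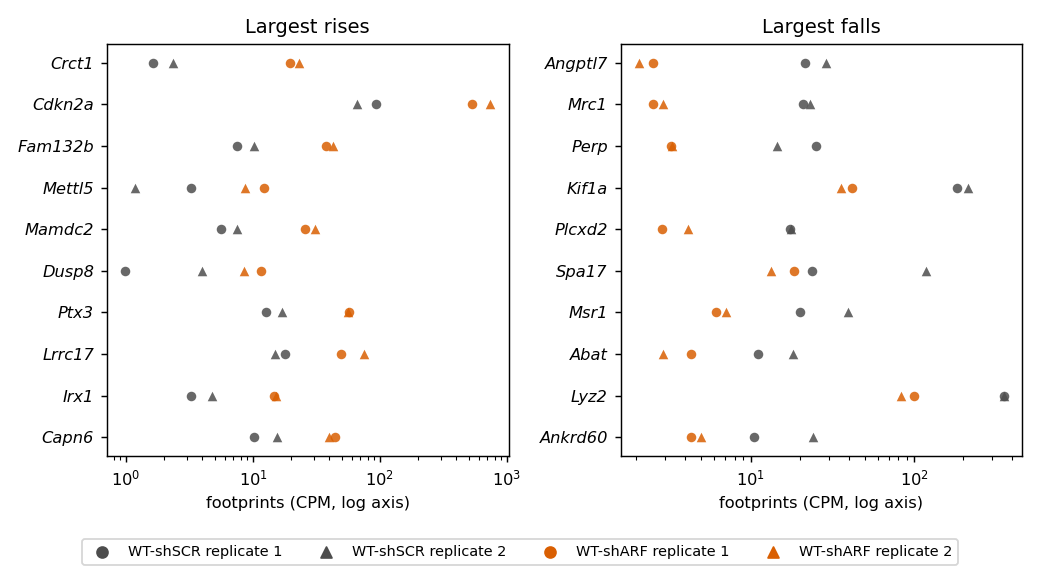
Footprint level (CPM, log axis) of the 10 largest rises and the 10 largest falls in each of the 4 libraries (grey WT-shSCR, orange WT-shARF; circles replicate 1, triangles replicate 2). The groups do not overlap, a condition of the choice, and *Spa17* has its 2 WT-shSCR libraries far apart.

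By share of all footprints on genes the picture was one of many small exchanges. Changing one library's shares into another's moved 5.63% of the footprints between the WT-shSCR replicates and 4.64% between the replicates labelled WT-shARF, and 10.3 to 11.0% between libraries of different groups. Genes that rose took 16.1 and 16% of footprints in WT-shSCR and 21.7 and 21.9% in the libraries labelled WT-shARF, and genes that fell took 21.8 and 22.0% against 15.9 and 15.6%. From the group means, 9.82 percentage points changed hands. Called genes accounted for 5.70 points of the gains (58.1%) and for a loss of −6.11 points (62.2%). The called genes were chosen on these same libraries, so the direction of their shares was set by the choice and is a description only. The 8 largest gains among genes with separate groups came to 1.26 points. With 2 libraries a side, an exact permutation test of a share cannot go below p = 0.33, so shares are given as values.

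Collagen I led the gains. *Col1a1* took 1.54 and 1.43% of all footprints in WT-shSCR and 2.07 and 2.12% in the libraries labelled WT-shARF, a gain of 0.61 points. Next were *Vim*, the intermediate filament vimentin (0.766 and 0.727% against 0.881 and 0.860%), and *Serpinh1*, the collagen chaperone HSP47 (0.435 and 0.400% against 0.544 and 0.518%). *Col3a1* gained 0.092 points, the cytosolic chaperone gene *Hsp90ab1* 0.0878 points and the tubulin gene *Tubb5* 0.0720 points. *Eef1a1*, which delivers aminoacyl-tRNAs to the ribosome, gained 0.0902 points, and its call (0.16, adjusted p = 0.0201) was lost without WT-shSCR replicate 2 (0.12, adjusted p = 0.0584) and without either library labelled WT-shARF. *Col1a2* gained 0.0752 points without passing the test (0.11, adjusted p = 0.116). The losses were led by *Fn1*, which encodes fibronectin (1.59 and 1.60% against 1.34 and 1.22%), and *Acta2*, smooth muscle actin (1.11 and 1.13% against 0.861 and 0.807%). *Fbln2* lost 0.186 points (share change −0.186), *Tnc* 0.137 (−0.137), *Flna* 0.121 (−0.121) and *Tpm1* 0.109 (−0.109), and all of these fell in the test. *Thbs1*, thrombospondin 1, had the highest share of the genes named here (3.44 and 3.38% against 3.32 and 3.24%) and did not pass (−0.07, adjusted p = 0.191).

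As lists, the 5′-TOP genes went from 5.77 and 5.82% of all footprints to 7.13 and 7.21%, a gain of 1.37 points, which was 14% of all gains. Collagen chains went from 4.29 and 4.00% to 4.83 and 4.87%, and mitosis genes from 0.258 and 0.295% to 0.520 and 0.513%. Contractile genes went from 8.81 and 8.76% to 7.86 and 7.82%, matrix glycoproteins from 8.30 and 8.27% to 7.52 and 7.19%, lysosomal genes from 0.746 and 0.771% to 0.475 and 0.480%, and integrins from 0.704 and 0.734% to 0.534 and 0.508%. In each of these lists both libraries labelled WT-shARF lay on the same side of both WT-shSCR libraries.

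**Figure D4:**
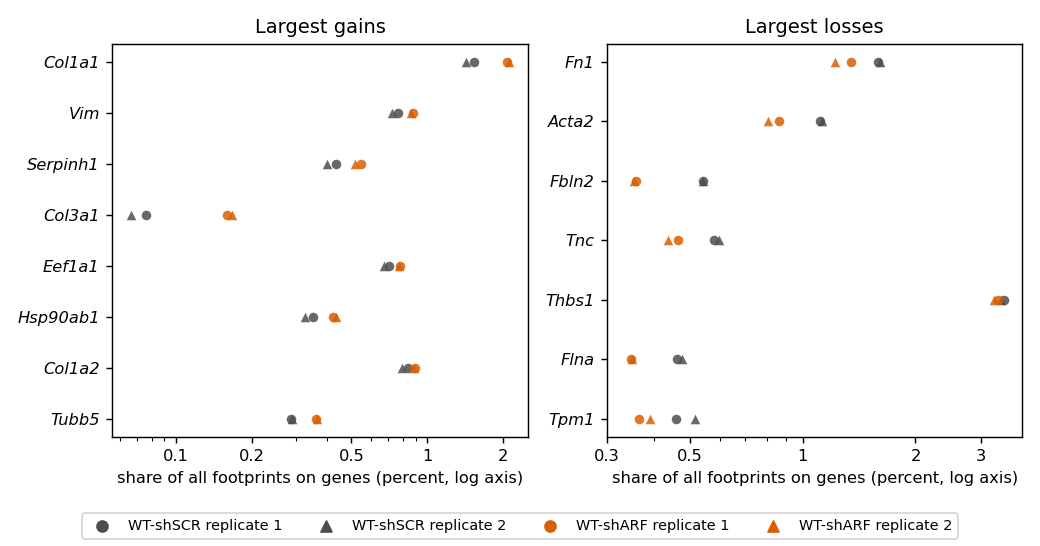
Share of all footprints on genes (percent, log axis) of the 8 genes with the largest gains and 7 of the 8 with the largest losses, in each of the 4 libraries (grey WT-shSCR, orange WT-shARF; circles replicate 1, triangles replicate 2). *Col1a1*, *Fn1* and *Acta2* exchange the most, and *Thbs1* has the highest share.

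RNA was then set beside the footprints, over the 9775 genes tested in both. In the 4 RNA libraries 79.2 to 81.3% of what was counted did not map uniquely, beside 46.3 to 52.7% in the footprint libraries. By the study's methods only reads on coding sequence were counted, so reads on untranslated regions and introns fell outside the counted features. Reads outside those features numbered 2.95 to 4.14 per count on genes, beside 0.247 to 0.341 for footprints. The part of these differences in the RNA and footprint comparison was not tested. In RNA 7.28% of all genes tested passed. Of 576 genes whose footprints rose 170 also rose in RNA (29.5%, beside 3.11% of all genes), and of 552 whose footprints fell 225 also fell in RNA (40.8%, beside 4.17%). These 395 genes were 244 when WT-shARF replicate 1 was left out and 174 when replicate 2 was. The sign was shared by 503 of the 576 and by 517 of the 552. Only *Nedd8*, a ubiquitin-like modifier gene, was called in opposite directions, with 54.0 and 65.0 CPM of footprints in WT-shSCR and 73.5 and 100.3 CPM in those labelled WT-shARF (0.56) and an RNA change of −0.64, and its footprint call was lost without WT-shSCR replicate 1 (0.43, adjusted p = 0.185) and without WT-shARF replicate 2 (0.31, adjusted p = 0.6). Across these genes, which are not independent replicates and whose footprint and RNA libraries differ in depth, Pearson's r of the log2 changes was 0.511 and Spearman's rho 0.481, and r was 0.769 in the 2060 genes with the most footprints.

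The lists differed in how RNA moved. None of the 77 tested 5′-TOP genes was called in RNA by edgeR or DESeq2, where 1 was higher and 11 lower at an unadjusted p under 0.05 and the median change was −0.08. Mitosis genes moved in both measures, with 27 of 32 higher in RNA, as did lysosomal genes, with 11 of 23 lower in RNA, and p53 targets, with 6 lower. *Col3a1* (RNA change 1.15), *Kif1a* (−2.35), *Angptl7* (−3.66) and *Lyz2* (−2.15) had RNA changes close to those of their footprints. *Rpl23a* and *Rpl22* had RNA changes of −0.06 and −0.01.

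**Figure D5:**
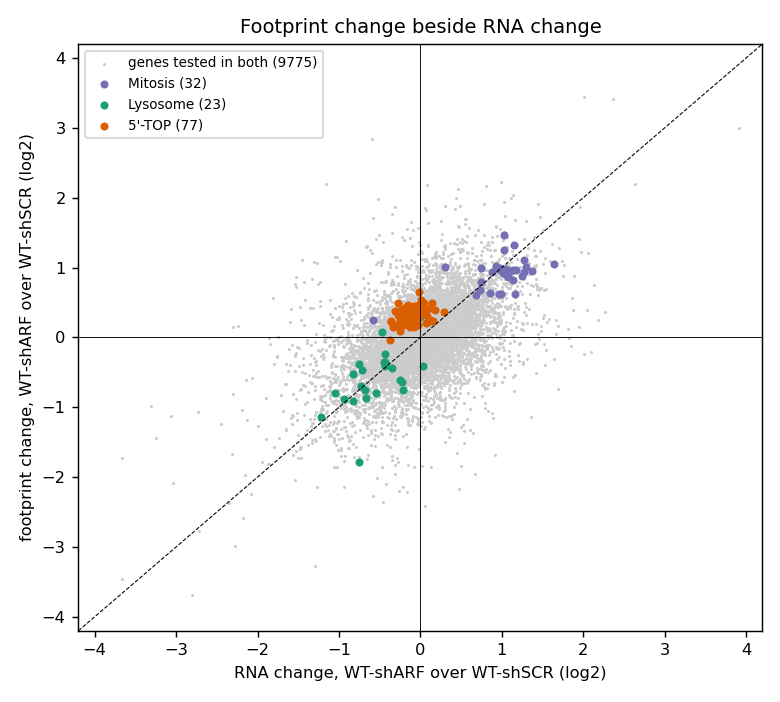
Log2 footprint change against log2 RNA change (both WT-shARF over WT-shSCR) for the 9775 genes tested in both, with the dashed line of equal change; 2 genes lie outside the axes, which end at 4.2. Mitosis and lysosome genes lie along the dashed line, and the 5′-TOP genes lie above 0 for footprints and around 0 for RNA.

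The ratio of the 2 measures, translational efficiency (TE), was tested as the difference between the footprint and the RNA change in 1 model over the 8 libraries. It called 4 of 11289 genes higher (0.0354%) and 0 lower in edgeR, with 430 and 321 genes at an unadjusted p under 0.05, and DESeq2 called 47 higher and 3 lower. The 4 genes were *Rps14* (TE change 0.78, adjusted p = 0.0448), *Mogat2*, whose footprints did not pass (0.25), and *Trpm7* and *Zfp934*, whose footprints fell (−0.99 and −0.61), the call of *Zfp934* being lost without WT-shSCR replicate 1 (−0.30, adjusted p = 0.421) and without WT-shARF replicate 2 (−0.46, adjusted p = 0.258). Of these 4 only *Trpm7* kept its TE call with each library left out in turn, and that of *Rps14* was lost without the footprint library of WT-shSCR replicate 1 (0.75, adjusted p = 0.126) or replicate 2 (0.81, adjusted p = 0.122) and without the RNA or footprint library of WT-shARF replicate 2 (0.69 and 0.65, adjusted p = 0.196 and 0.337). *Trpm7* had 5920 and 1377 unscaled RNA counts in the WT-shSCR libraries, far apart, and 297 and 670 in those labelled WT-shARF. Its TE change thus came with a fall in RNA larger than that in footprints. The median TE change of the 5′-TOP list was 0.44 on the log2 scale. Other lists had medians on both sides of 0, among them interferon response (0.41), glycolysis (0.27), oxidative phosphorylation (0.25), mitosis (−0.11) and giant linkers (−0.21). TE was above 0 for 440 of the 580 genes whose footprints rose and below 0 for 379 of the 567 whose footprints fell, which share their footprint counts with the calls and are a description only.

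The Arf-KO-shSCR footprints were compared with the same WT-shSCR libraries, so the 2 comparisons share their controls and only their own values are given. There 9.57% of 10737 genes were higher and 8.95% lower. All 77 tested 5′-TOP genes were higher in Arf-KO-shSCR, with a median of 0.51, beside 60 and 0.33 for the libraries labelled WT-shARF. The lysosome list had 19 lower (median −0.77) beside 17 (−0.61), the mitosis list 31 higher beside 29, the p53 targets 16 lower (−0.72) beside 8 (−0.33), and the macrophage list 16 lower (−3.73) beside 11 (−0.98). *Cdkn2a* was lower in Arf-KO-shSCR (−1.10) and higher in the libraries labelled WT-shARF (2.99). *Col1a1* had a change of −0.24 in Arf-KO-shSCR and 0.48 in the libraries labelled WT-shARF, and *Acta2* one of 0.15 and −0.44. *Mdm2* changed by −1.35 and −0.71, and *Cdkn1a* by −1.62 and −0.42. Collagen chains had 5 higher and 16 lower in Arf-KO-shSCR and 7 and 5 in the libraries labelled WT-shARF, and contractile genes had 7 and 7 beside 2 and 13. Whether the 2 changes differ was not tested.

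Footprint change had a weak relation to the length of the coding sequence. For the 10275 genes with a coding length in 5 equal groups, the median log2 change went from 0.051 in the shortest to −0.036 in the longest, and the shortest group held 183 genes that rose and 90 that fell, against 92 and 144 in the longest. Without ribosomal protein and 5′-TOP genes the medians of the shortest and longest groups were 0.038 and −0.036. The median RNA changes of the same genes ran the other way, −0.057 in the shortest group and 0.044 in the longest. Ribosomal protein genes are short and giant linker genes long, and the part of length in their footprint, RNA and TE changes was not tested.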

How the data were processed

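Processed files were 1 table of gene counts per library. Per the labels and the study's methods, footprints were made with RNase T1, the RNA-seq libraries from fragmented ribo-depleted RNA, and the authors used UMI-tools, cutadapt, Bowtie2, TopHat and HTSeq on mm10, with versions not given in the sources used here. The deposited values are raw whole-number counts of uniquely placed reads per gene, taken over coding sequence according to the study's methods. Removal of PCR duplicates is not stated, and the yeast spike-in was not used, so every change is relative to the library's total. The strand setting of the counting is not given, and overlapping genes cannot be told apart.

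The 5 summary lines of each file were removed. Shares are percentages of all counts on genes, and CPM were computed with TMM factors over the genes tested. Genes that passed edgeR's default filter were fitted with edgeR 4.0.16 (TMM, glmQLFit and glmQLFTest, limma 3.58.1, R 4.3.3) over the 4 footprint libraries, with a Benjamini-Hochberg threshold of 0.05. RNA was fitted over its 4 libraries, TE as an interaction over all 8, and Arf-KO-shSCR against WT-shSCR footprints in a fit of their own. The standard error is the absolute log2 change over the square root of F. The scripts were first tested on simulated data. Tables and figures were made with Python 3.11.15 and numpy 2.4.6.

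Genes named were the 10 largest rises and falls with separate groups and at least 30 counts in each library of the higher group, the 8 largest share gains and losses with separate groups, 11 genes of the ARF, p53 and 5′-TOP pathways, and up to 4 called members of each list with the largest change. *Sv2a*, *Fsd1*, *Nedd8*, *Apoe*, *Rpl38*, *Tagln2*, *Csrp1*, the 3 uncalled mitosis genes, the 9 genes with printed starts and the genes called for TE were named outside that rule, after their values were seen. The lists and the comparison were chosen with earlier results of these data known. The alternatives were DESeq2 1.42.0, other size factors, filters, thresholds and share denominators, all 6 footprint libraries in 1 fit, a replicate block, and leaving out each library. With a library left out, the lone sample of its group is assumed to vary like the other group. Replicate numbers did not pair the libraries. Some genes that the rule selects are not reported here.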

Additional observations from a re-analysis of the deposited data

How the results depend on the processing

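Against 580 higher, 567 lower and 60 5′-TOP calls, DESeq2 gave 414 and 375 (413 and 374 of them shared, 26 and 44 of the edgeR calls, *Crct1*, *Mrc1*, *Perp* and *Plcxd2* among them, having no adjusted p in DESeq2), an adjusted p under 0.01 gave 306, 302 and 41, and a fold change of at least 2 gave 110, 171 and 0 (39.1% of its calls higher, beside 50.6%). Leaving out 1 library in turn gave 292 to 565 higher, 322 to 502 lower and 37 to 53 5′-TOP calls. RLE factors (586 and 572), upper quartile factors (552, 617 and 55), library totals (636, 549 and 61), TMM without ribosomal protein and 5′-TOP genes (588 and 561), no filter (608 and 546), at least 10 counts in each library (622 and 617) and all 6 libraries in 1 fit (649, 580 and 59) stayed within 1.5 times. Replicate numbers were shared between groups, but the deviations of same-numbered footprint libraries correlated at r = 0.013 over 10307 genes, so the numbers were not taken as pairs; with the replicate block 696, 680 and 66 genes were called, every call without it included. No called gene was called in the opposite direction under any of these settings. Changes of sign without a call were not counted there.

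The 5′-TOP gain of 1.37 percentage points was 1.49 without the 10 genes with the most footprints in the total and 1.33 to 1.42 with 1 library left out. Footprint calls with an RNA call in the same direction numbered 395, or 227 with DESeq2 and 174 to 374 with 1 library left out, and those with a TE call in their direction 1, or 35 with DESeq2 (which gave no adjusted p for 10724 of the 11289 genes), 20 with the replicate block and, with 1 library left out, 0 to 23 (5 and 4 without the RNA libraries of WT-shSCR replicate 1 and WT-shARF replicate 1, 2 and 3 without their footprint libraries, and 23 without the RNA library of WT-shSCR replicate 2). Among the genes named, the uncalled change of *Cdkn2b* was 0.09 without WT-shSCR replicate 1 and −0.31 without WT-shSCR replicate 2, and that of *Eif4g1* 0.00 with library totals, −0.05 without WT-shSCR replicate 1, 0.02 without WT-shSCR replicate 2 and 0.01 without WT-shARF replicate 1. The cause of these shifts was not tested, and the fits that leave 1 library out also hold fewer libraries. With 2 libraries a side, depths of 2544319 to 4800039 counts limit what can be said of small changes at low levels, where few genes passed.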
